A study of Sus scrofa with 3 samples.

Results

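The urea cycle and the breakdown of amino acids were followed through 41 listed genes in the liver of Wuzhishan miniature pigs on a diet rich in fat and cholesterol (HFC). A gene was taken as a member when its symbol was a GeneID in the deposited tables, which held for 35 of the 41 among 22945 mRNA features. A further 2 genes, ASL and AGXT, were listed under RefSeq gene numbers instead of symbols; they are described beside the 35 but not counted with them. TDO2, HAAO, CBS and PRODH were not analysed here. The animals were males, 6 to 7 months of age when obtained, and received the HFC diet after 7 weeks of acclimation. The 3 groups were IM (intact), CM (castrated) and CMT (castrated and given testosterone propionate at 10 mg/kg body weight weekly). The diet held 73% swine feed, 15% lard, 10% egg yolk powder, 1.5% cholesterol and, of sodium cholate, 0.5%, and was fed for 12 weeks. Each group was sequenced as 1 RNA-Seq library made from pooled liver RNA. The labels give 3 pigs per pool and the methods of the study 6 pigs per group, and no group on a normal diet was part of these libraries.

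Amino acids that are not needed for protein are broken down mainly in the liver. Transaminases move their nitrogen to glutamate, glutamate dehydrogenase releases part of it as ammonia, and the urea cycle turns ammonia and aspartate nitrogen into urea in hepatocytes, the main cells of the liver. Ammonia that escapes the cycle is bound into glutamine by glutamine synthetase in the hepatocytes around the central veins. The remaining carbon skeletons enter gluconeogenesis, the tricarboxylic acid cycle or ketone body formation, and many of the enzymes are known to respond to glucagon, glucocorticoids and feeding.

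Values were deposited as FPKM, by name the fragments of a gene for each kilobase of its exons relative to the fragments mapped. They are a measure per transcript length, so levels of different genes can be set side by side within a library. A gene was called higher or lower in a comparison when it reached 1 FPKM in each of the 3 libraries and differed by at least 1.5-fold, and all 35 members passed that minimum. With 1 library per group the differences have no replicate check, no p-value is given, and they describe these 3 pools rather than castration or testosterone as such. Read numbers were recovered from the steps of the FPKM values, in total 32197347 for IM, 36126515 for CM and 25419681 for CMT. The 95% intervals in the text are exact binomial intervals on these reads and cover counting error only. The members held between 70 and 105797 reads per library; for CPS1, GLS2 and BHMT no reads could be recovered, so these 3 genes have no interval. The library divisors recovered with the reads, 2.51 for IM, 3.42 for CM and 2.04 for CMT, were not in proportion to the read totals. The deposited columns are thus not scaled to the recovered reads, and 3 reads per kilobase stood at 1.20, 0.877 and 1.47 FPKM. This scale matters for small differences. Rescaling to the recovered reads raised log2 ratios of CM to IM by 0.28. It lowered those of CMT to CM by 0.24 and raised those of CMT to IM by 0.04.

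Hepatocyte transcripts were present at high levels in all 3 libraries, with ALB (albumin) at 690375 FPKM in IM, 476360.2 in CM and 445509 in CMT. Of 7 hepatocyte markers, 1 was called in CM versus IM, FGB, a fibrinogen chain, at 46989 FPKM in IM, against 21358 in CM and 67812 in CMT. The 5 T and NK cell markers were highest in CM, with a summed level of 403 FPKM in IM, 550.3 in CM and 305 in CMT. None of these 5 was called in CM versus IM as deposited, with log2 ratios of 0.40 to 0.57. The shift of 0.28 from rescaling to the recovered reads would take all 5 past 1.5-fold. In CMT versus CM 4 were lower, or 80.0%, beside 13.5% of all features. In CMT versus IM 3 were lower, or 60.0%, beside 10.1%. Erythroid markers were lowest in CM, with HBB at 17158 FPKM in IM, against 3399.7 in CM and 5151 in CMT, and AHSP was listed at 0 there. Of 5 cholangiocyte markers, KRT7, SOX9 and EPCAM were higher in CM versus IM, SOX9 on 8 and 20 recovered reads with an interval that included no difference; of 5 macrophage markers, MARCO was lower, at 414, 82.8 and 317 FPKM in IM, CM and CMT, and of 5 endothelial markers, VWF was lower. None of 7 stellate cell and 4 B cell markers was called in that comparison. These marker calls are for the columns as deposited, and some would pass or fall short of 1.5-fold after rescaling. In bulk libraries fewer cells of a type and less RNA per cell cannot be told apart, and the part of these markers in the results below was not tested.

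Taken over all members, the CM library held the lowest level of most enzymes. CM was the lowest of the 3 libraries for 25 of the 35 members, CMT for 7 and IM for 3; 25 is 71.4% of the members. Over all 15613 mRNA features that reached 1 FPKM in each library CM was the lowest for 38.7%, and for 52.5% of the 4626 features with at least 100 FPKM in each. With the columns rescaled to the recovered reads, CM was the lowest for 19 members, or 54.3%, beside 17.7% and 23.1% of these features. The summed level of the 35 genes was 106566 FPKM in IM, 66136 in CM and 96818 in CMT, or 1.31%, 0.969% and 1.21% of the FPKM of all mRNA features. In IM 24 members were among the 1000 most abundant mRNA features, in CM 18 and in CMT 22. The highest was HPD in IM and CMT, and ASS1 in CM.

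In CM versus IM, 15 members were lower and 4 were higher by at least 1.5-fold. These are 42.9% and 11.4% of the 35, beside 12.1% lower and 11.1% higher among the 15613 mRNA features. Because the members are abundant, the 4626 abundant features served as another background, of which 11.5% were lower and 3.89% higher. Among the 32 members at that level, 15 were lower and 3 higher. The median log2 ratio of the 35 members was -0.44, against -0.02 for all features and -0.08 for the abundant ones. With the columns rescaled to the recovered reads, 10 members were lower and 5 higher, beside 1003 lower and 3432 higher of the 15613 features. By share, members were then more often lower and less often higher than all features. OTC, SLC25A15, CTH, AASS and UROC1 were no longer called and GPT was called higher. The median of the members was -0.16, while that of all features moved to 0.26. These rescaled counts over all features are also the background for the rescaled counts of single pathway groups below.

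In CMT versus CM the balance ran the other way, with 13 members higher and 5 lower. That is 37.1% and 14.3% of the members, against 12.1% higher and 13.5% lower over all features. Among the abundant features 14.1% were higher and 4.19% lower, and among the 32 abundant members 13 were higher and 3 lower. The median log2 ratio of the members was 0.35 beside 0.01 for all features and 0.14 for the abundant ones. After rescaling to the recovered reads 8 members were higher, without OTC, TAT, MAT1A, BCKDHB and OAT, and 5 were lower. Over all features 1065 were then higher and 3497 lower. The median was 0.11 for the members and -0.23 for all features.

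In CMT versus IM no member was higher and 7 were lower, GLUL, TAT, SDS, HAL, GPT, GPT2 and OAT, of which TAT fell short of 1.5-fold after rescaling. The background was 6.67% higher and 10.1% lower over all features, and 2.90% and 3.22% among the abundant ones. The members' median log2 ratio was -0.03, close to the -0.01 of all features. The comparisons share libraries, so their values are given side by side without a relation between them. Of the 15 members lower in CM than in IM, 11 lay within 1.5-fold of IM in CMT and 4 were lower there too, TAT, SDS, HAL and OAT. The matching share among all features lower in CM than in IM was not counted, so these numbers have no background. CM was lower than both other libraries by at least 1.5-fold for 11 members, or 31.4%, beside 7.12% of all features and 8.39% of the abundant ones. It was higher than both for 4 members, NAGS, GLUL, KYNU and GPT2, or 11.4%, beside 6.87% of all features and 2.53% of the abundant ones.

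**Figure D1:**
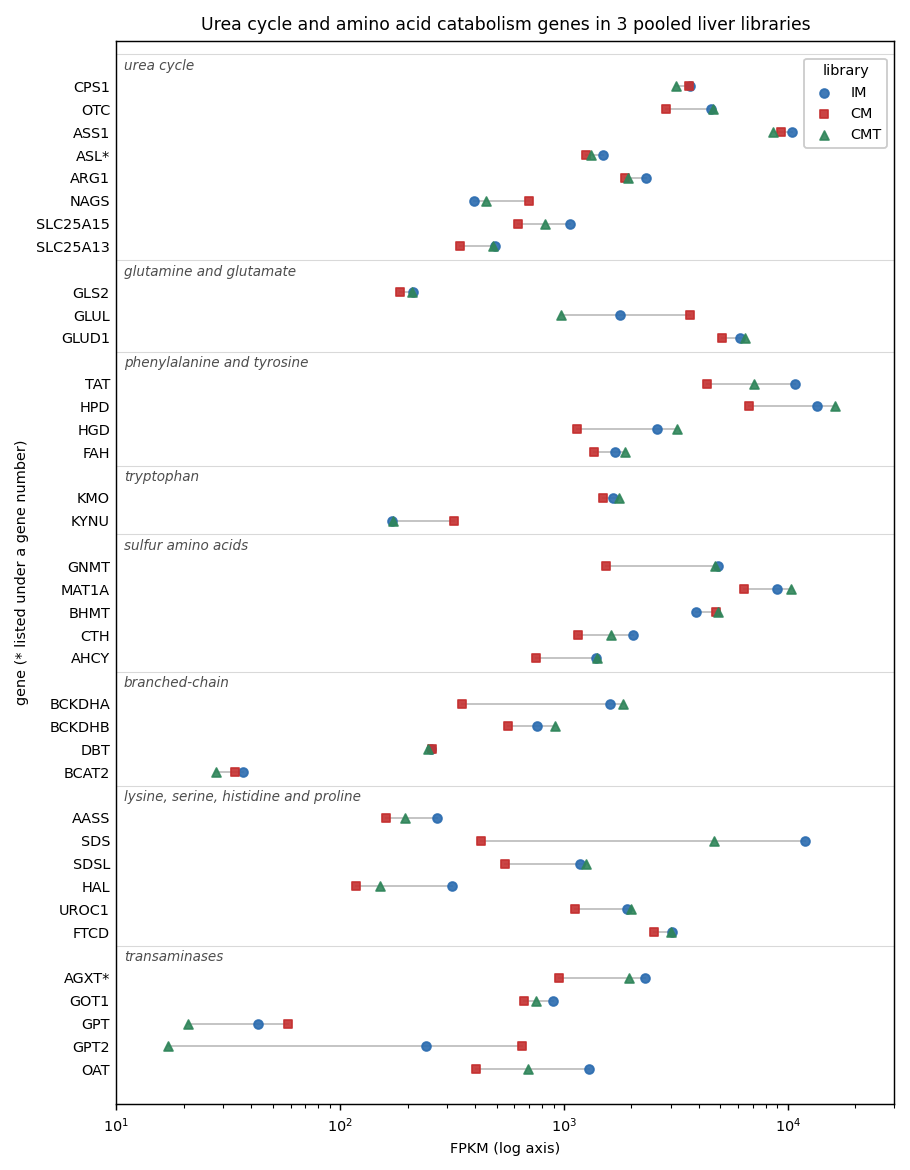
FPKM of each gene (log axis) in the IM (circles), CM (squares) and CMT (triangles) libraries, grouped by pathway, with a grey line from the lowest to the highest library. ASL and AGXT, marked with an asterisk, were listed under gene numbers; CM lay lowest for 25 of the 35 other genes, and SDS and GPT2 have the widest spreads.

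**Figure D2:**
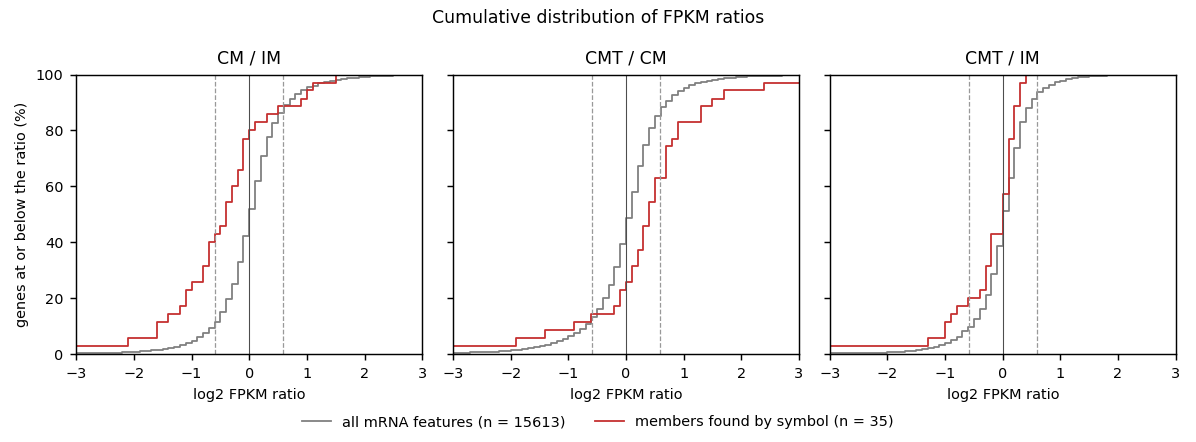
Share of genes (percent, vertical axis) at or below each log2 FPKM ratio, for the 35 members and for all 15613 mRNA features above the minimum, with dashed lines at 1.5-fold. At a log2 ratio of -0.6 the members stand at 42.9% against 11.6% of all features in CM / IM, and at 0.6 they stand at 62.9% against 88.4% in CMT / CM, while the curves cross toward the opposite tail in both; SDS and GPT2 go beyond the axis.

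Of the urea cycle enzymes, CPS1, ASS1, ASL and ARG1 stayed within 1.5-fold in every comparison. CPS1, which makes carbamoyl phosphate from ammonia and commits it to the cycle, was at 3664 FPKM in IM, against 3618 in CM and 3172 in CMT, so CM lay 1.01-fold below IM. ASS1, argininosuccinate synthetase, stood at 10438, 9309 and 8638 FPKM in IM, CM and CMT, and CM was 1.12-fold (95% interval 1.10 to 1.14) below IM. ARG1, the arginase that releases urea, was at 2332, 1878 and 1932 FPKM, 1.24-fold (1.22 to 1.26) lower in CM than in IM. ASL, argininosuccinate lyase, was at 1501 FPKM in IM, 1251 in CM and 1317 in CMT.

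OTC, which joins carbamoyl phosphate to ornithine inside mitochondria, was the enzyme of the cycle itself with the largest difference between CM and IM. Its FPKM was 4534 in IM, 2874 in CM and 4661 in CMT. CM was 1.58-fold (1.55 to 1.61) below IM and CMT was 1.62-fold (1.59 to 1.65) above CM, while IM and CMT differed by 1.03-fold. The ratio of OTC to CPS1 was 1.24 in IM, 0.794 in CM and 1.47 in CMT. Rescaled to the recovered reads, OTC no longer reached 1.5-fold in either comparison with CM.

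Both mitochondrial carriers among the members were also lowest in CM. SLC25A15, the ornithine carrier, was at 1069.8 FPKM in IM, 626 in CM and 822 in CMT, which placed CM 1.71-fold (1.63 to 1.79) below IM and CMT between the other pools. SLC25A13, the citrin carrier that exports aspartate, was at 492, 344 and 483 FPKM, 1.43-fold (1.4 to 1.5) lower in CM than in IM and short of the threshold. NAGS ran against them. This synthase makes N-acetylglutamate, the activator that CPS1 requires, and its level was 396 FPKM in IM, 695 in CM and 449 in CMT. CM was 1.75-fold (1.63 to 1.89) above IM and CMT was 1.55-fold (1.43 to 1.67) below CM. In all, 2 of the 7 urea cycle members were lower, 1 was higher and 4 lay within 1.5-fold in CM versus IM. That is 28.6% lower and 14.3% higher, beside 12.1% and 11.1% of all features and 11.5% and 3.89% of the abundant ones. After rescaling to the recovered reads OTC and SLC25A15 were no longer called, and NAGS alone was. The summed level of the 7 was 22927 FPKM in IM, 19344 in CM and 20158 in CMT.

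Glutamine synthetase, GLUL, was highest in CM and lowest in CMT, an order that GPT and GPT2 had too. Its level was 1789 FPKM in IM, against 3677 in CM and 974 in CMT. CM was 2.06-fold (2.0 to 2.1) above IM, and CMT was 3.78-fold (3.63 to 3.93) below CM and 1.84-fold (1.76 to 1.92) below IM. The liver glutaminase GLS2, which runs the opposite reaction, was at 212, 185 and 209.8 FPKM, and GLUD1, glutamate dehydrogenase, at 6146, 5081 and 6446 FPKM, both within 1.5-fold throughout. The ratio of GLUL to GLS2 was thus 8.45 in IM, against 19.9 in CM and 4.64 in CMT. The ratio of CPS1 to GLUL was 2.05 in IM, 0.984 in CM and 3.26 in CMT.

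GLUL is normally confined to the hepatocytes around the central vein, where CYP2E1 and CYP1A2 are also high. CYP2E1 was at 3148 FPKM in IM, against 14546 in CM and 54.4 in CMT, and CYP1A2 at 3502, 5294 and 101 FPKM. Of the 6 markers of these cells, CYP2E1, CYP1A2 and AXIN2 were higher and SLC1A2 lower in CM versus IM, AXIN2 with a counting interval that included no difference, and their summed level was 6827 FPKM in IM, against 19909 in CM and 303 in CMT. The markers did not move as a group. LGR5 was at 8.52, 9.38 and 7.20 FPKM in IM, CM and CMT and TBX3 at 35.7, 37.5 and 46.0, while SLC1A2, a glutamate transporter of the same cells, was at 123, 6.33 and 88.5 FPKM. Periportal markers, of the cells where urea is made, were also mixed, with PCK1 at 15266, 6514 and 11000.0 FPKM and HSD17B13 at 4557, 8138 and 525. The part of zonal composition in the GLUL values was not tested.

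All 4 members for tyrosine breakdown were lowest in CM, also after rescaling to the recovered reads. They form consecutive steps from tyrosine to fumarate and acetoacetate, with 1 intermediate enzyme outside the list. TAT, the aminotransferase that starts the route, was at 10757 FPKM in IM, 4379.7 in CM and 7074 in CMT. CM was 2.46-fold (2.40 to 2.51) below IM, and CMT was 1.62-fold (1.57 to 1.66) above CM but still 1.52-fold (1.49 to 1.56) below IM. HPD, the dioxygenase that forms homogentisate, was at 13562, 6692 and 16205 FPKM, 2.03-fold (1.99 to 2.06) lower in CM than in IM and 2.42-fold (2.38 to 2.46) higher in CMT than in CM. HGD, which opens the homogentisate ring, was at 2599, 1139 and 3194 FPKM and differed by 2.28-fold (2.19 to 2.38) and 2.80-fold (2.69 to 2.93) in the same comparisons.

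FAH, the last enzyme of the route, showed the same order with smaller differences, at 1686 FPKM in IM, against 1366 in CM and 1879 in CMT, and stayed within 1.5-fold. For all 4 genes CM was the lowest library, and for HPD, HGD and FAH CMT was the highest. The summed level of the 4 was 28605 FPKM in IM, 13577 in CM and 28353 in CMT. GSTZ1, the maleylacetoacetate isomerase that sits between HGD and FAH, was at 1889.8, 1303 and 2339 FPKM.

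Of the tryptophan route, 2 members were measured, and they differed. KMO, kynurenine 3-monooxygenase, was at 1662 FPKM in IM, 1492 in CM and 1765 in CMT. KYNU, kynureninase, was at 171, 322 and 172 FPKM, so IM and CMT differed by 1.01-fold (0.864 to 1.17) and CM was 1.88-fold (1.67 to 2.12) above IM and 1.87-fold (1.65 to 2.13) above CMT. KYNU rested on 384, 985 and 314 reads.

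Among the enzymes of methionine and the other sulfur amino acids, 4 of 5 were lowest in CM. MAT1A, which makes S-adenosylmethionine in the adult liver, was at 8978 FPKM in IM, 6370.2 in CM and 10307 in CMT. It was 1.41-fold (1.40 to 1.42) lower in CM than in IM, below the threshold, and 1.62-fold (1.60 to 1.63) higher in CMT than in CM. GNMT, the glycine methyltransferase that disposes of surplus S-adenosylmethionine, was at 4871, 1536 and 4712 FPKM. CM was 3.17-fold (3.08 to 3.27) below IM and CMT was 3.07-fold (2.97 to 3.17) above CM, while IM and CMT differed by 1.03-fold. The ratio of GNMT to MAT1A was 0.542 in IM, 0.241 in CM and 0.457 in CMT.

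AHCY, which hydrolyses S-adenosylhomocysteine, was at 1386 FPKM in IM, 754 in CM and 1401 in CMT, 1.84-fold (1.75 to 1.93) lower in CM than in IM. CTH, the cystathionase that yields cysteine, was at 2046, 1152 and 1629 FPKM, with CM 1.78-fold (1.68 to 1.87) below IM and CMT 1.41-fold (1.3 to 1.5) above CM. BHMT, which returns homocysteine to methionine with betaine, was the exception. Its level was 3902 FPKM in IM, against 4773 in CM and 4869 in CMT, and it was within 1.5-fold in all comparisons. BHMT2, a near copy of BHMT, was at 1986, 2339 and 2133 FPKM, and how the counting divided reads between the pair is not given in the sources used here. Over the 5 members, 3 were lower in CM versus IM and 3 were higher in CMT versus CM. These are 60.0% in each case, beside 12.1% of all features in each and 11.5% and 14.1% of the abundant ones. After rescaling to the recovered reads 2 were lower, without CTH, and 2 higher, without MAT1A. None ran the other way past the threshold, and none was called in CMT versus IM.

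Leucine, isoleucine and valine are first transaminated and then decarboxylated by the branched-chain ketoacid dehydrogenase, whose subunits differed unequally between the pools. BCKDHA, the alpha subunit of its catalytic part, was at 1608 FPKM in IM, 351 in CM and 1841 in CMT. CM was 4.58-fold (4.42 to 4.74) below IM and CMT was 5.24-fold (5.07 to 5.43) above CM. In CM versus IM its log2 ratio of -2.19 was the 101st lowest of the 15613 mRNA features. BCKDHB, the beta subunit that pairs with it, was at 762, 562 and 910.4 FPKM, 1.36-fold (1.28 to 1.44) lower in CM than in IM and 1.62-fold (1.52 to 1.72) higher in CMT than in CM. DBT, the core subunit, was at 255, 258 and 247 FPKM, and its interval held 1 in every comparison.

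The level of BCKDHA relative to BCKDHB was 2.11 in IM, against 0.625 in CM and 2.02 in CMT, and relative to DBT it was 6.31, 1.36 and 7.46. These ratios are taken within a library and do not depend on the scale of the columns. DLD, the third subunit, which other dehydrogenases share, was at 549.7, 468 and 629 FPKM, and BCKDK, the kinase that inactivates the complex, at 266, 242 and 349. BCAT2, the mitochondrial transaminase of the first step, which is low in liver, was at 36.9 FPKM in IM, against 34.0 in CM and 28.0 in CMT, and rested on 250, 314 and 154 reads.

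The largest difference of any member in CM versus IM was that of SDS, serine dehydratase, which turns serine into pyruvate and ammonia and feeds gluconeogenesis. SDS was at 12000.3 FPKM in IM, 424 in CM and 4697 in CMT. CM was thus 28.3-fold (27.2 to 29.4) below IM, CMT was 11.1-fold (10.6 to 11.5) above CM, and CMT was still 2.55-fold (2.51 to 2.60) below IM. SDS ranked 104th among mRNA features by level in IM, 1609th in CM and 274th in CMT. Its log2 ratio of -4.82 in CM versus IM was the 6th lowest of 15613, and its log2 ratio of 3.47 in CMT versus CM was the 23rd highest. The values rest on 54850 reads in IM, against 2642 in CM and 17448 in CMT.

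SDSL, a related enzyme encoded by a separate gene, differed in the same direction over a narrower range. It was at 1183 FPKM in IM, 547 in CM and 1261 in CMT, 2.16-fold (2.07 to 2.26) lower in CM than in IM and 2.30-fold (2.20 to 2.41) higher in CMT than in CM. The ratio of SDS to SDSL was 10.1 in IM, against 0.775 in CM and 3.73 in CMT, so SDSL was the more abundant of the pair in CM alone. How reads shared by the pair were counted is not given in the sources used here. OAT, ornithine aminotransferase, links ornithine to glutamate and proline. It was at 1300.2 FPKM in IM, against 405 in CM and 688 in CMT, and CM was 3.21-fold (3.08 to 3.34) below IM. CMT was 1.70-fold (1.61 to 1.78) above CM and 1.89-fold (1.81 to 1.97) below IM.

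Histidine is broken down to glutamate by HAL, UROC1, AMDHD1 and FTCD in that order, all of them lowest in CM as deposited, and HAL differed most and FTCD least between CM and IM. HAL, histidine ammonia-lyase, was at 315 FPKM in IM, 118 in CM and 151 in CMT, with CM 2.67-fold (2.42 to 2.94) below IM and CMT 2.09-fold (1.88 to 2.33) below IM. UROC1, urocanate hydratase, was at 1911, 1123 and 2002 FPKM, 1.70-fold (1.64 to 1.76) lower in CM than in IM and 1.78-fold (1.72 to 1.85) higher in CMT than in CM. FTCD, which passes the formimino group to folate, was at 3052, 2519 and 3017 FPKM, 1.21-fold (1.19 to 1.24) lower in CM than in IM. AMDHD1, the imidazolonepropionase between UROC1 and FTCD and not a member, was at 933, 417 and 579 FPKM, 2.24-fold (2.15 to 2.33) lower in CM than in IM.

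AASS, the bifunctional enzyme that starts lysine breakdown, was at 271 FPKM in IM, against 159.8 in CM and 194 in CMT, and CM was 1.70-fold (1.60 to 1.79) below IM. Of the 6 members for lysine, serine and histidine, 5 were lower in CM versus IM and 3 were higher in CMT versus CM, none in the opposite direction. These are 83.3% and 50.0%, beside 12.1% of all features in each case and 11.5% and 14.1% of the abundant ones. After rescaling to the recovered reads 3 were lower, without AASS and UROC1, and 3 higher. All 6 were lowest in CM as deposited, and 5 after rescaling to the recovered reads. Their summed level was 18731 FPKM in IM, 4892 in CM and 11322 in CMT, most of it SDS in IM.

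The alanine and aspartate aminotransferases, whose release into blood marks liver injury, differed between the pools in unlike ways. GPT2, the mitochondrial alanine aminotransferase, was at 241 FPKM in IM, 648 in CM and 17.0 in CMT. CM was 2.69-fold (2.52 to 2.86) above IM, whereas CMT was 38.1-fold (30.1 to 49.0) below CM and 14.2-fold (11.1 to 18.3) below IM. The value in CMT rested on 70 reads, against 1222 in IM and 4471 in CM. In CMT versus CM its log2 ratio of -5.25 was the 11th lowest of 15613 features, and in CMT versus IM its log2 ratio of -3.83 was the 10th lowest.

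GPT, the cytosolic alanine aminotransferase, was also highest in CM and lowest in CMT, at 42.8 FPKM in IM, 58.6 in CM and 21.0 in CMT. It was 1.37-fold (1.20 to 1.56) higher in CM than in IM, within the threshold as deposited but past it after rescaling to the recovered reads, and CMT was 2.79-fold (2.32 to 3.38) below CM. GPT was low in all 3 pools and rested on 346, 645 and 138 reads. GPT2 exceeded GPT in IM and CM, with a ratio of GPT to GPT2 of 0.177 and 0.0903, while in CMT the ratio was 1.23. GOT1, cytosolic aspartate aminotransferase, was at 896 FPKM in IM, against 663 in CM and 749.9 in CMT and stayed within 1.5-fold, as did the mitochondrial GOT2 at 2804, 1935 and 2891 FPKM. AGXT, the alanine-glyoxylate aminotransferase that removes glyoxylate, was at 2312, 950.1 and 1949 FPKM, 2.43-fold (2.28 to 2.60) lower in CM than in IM and 2.05-fold (1.91 to 2.20) higher in CMT than in CM.

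**Figure D3:**
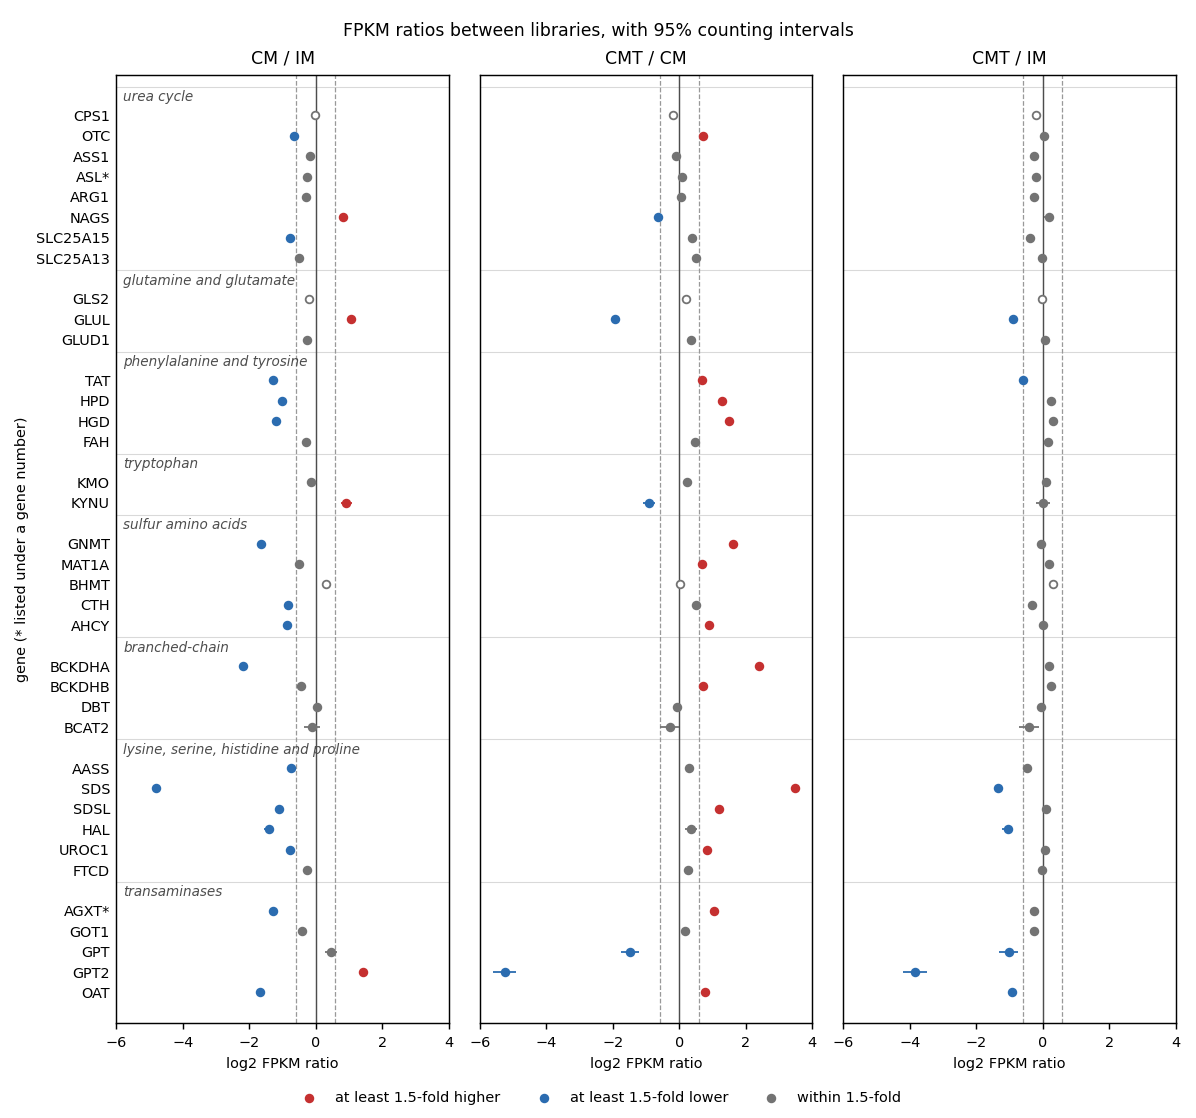
Log2 FPKM ratio of each gene in CM / IM, CMT / CM and CMT / IM, with 95% counting intervals as horizontal bars (often narrower than the point) and dashed lines at 1.5-fold; open points have no recovered reads. Most points of the tyrosine, sulfur and lysine-serine-histidine groups lie left of 0 in CM / IM and right of 0 in CMT / CM, whereas NAGS, GLUL, KYNU and GPT2 lie on the opposite sides.

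Apart from the 13 members within 1.5-fold in every comparison, among them CPS1, ASS1, ARG1, GLUD1, FAH, KMO and FTCD, each differed in at least 1 comparison.

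A wider list of 115 other genes of amino acid metabolism was examined in the same way, of which 103 were found and 101 reached 1 FPKM in every library. In CM versus IM 22 were lower and 8 higher, or 21.8% and 7.92%, beside 12.1% and 11.1% of all features. In CMT versus CM 31 were higher and 8 lower, or 30.7% and 7.92%, beside 12.1% and 13.5%. In CMT versus IM 1 was higher, MUT, and 12 were lower, beside 6.67% and 10.1% of all features; the 12 are 11.9% of the list, near the share of all features. The median log2 ratios were -0.31, 0.35 and 0.05. These counts depended on scale. With the columns rescaled to the recovered reads, 12 were lower and 10 higher in CM versus IM, and 11 were higher and 14 lower in CMT versus CM. Over all features 1003 were then lower and 3432 higher in CM versus IM, and 1065 higher and 3497 lower in CMT versus CM.

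Most enzymes of branched-chain amino acid breakdown were lowest in CM. Of 20 genes, 18 were lowest in CM and 16 highest in CMT, or 14 and 15 after rescaling to the recovered reads. These are 90.0% and 80.0% as deposited, beside 38.7% and 33.2% of all features and 52.5% and 46.7% of the abundant ones. In CM versus IM 5 were lower, ACAD8, AUH, ACAT1, PCCA and MUT, which are named for this count, and in CMT versus CM 11 were higher, or 25.0% and 55.0% beside 12.1% of all features in each case. After rescaling ACAD8 alone was still called in CM versus IM, and 2 genes, AUH and MUT, were still higher in CMT versus CM. The median log2 ratios of the list were -0.42 and 0.60 as deposited, and -0.14 and 0.36 after rescaling. ACAD8, of the valine route, was the lowest in CM relative to IM, at 599 FPKM in IM, against 299 in CM and 402 in CMT, and MCEE, a methylmalonyl-CoA epimerase, the highest at 480.1, 510.1 and 522. Of these 20 branched-chain genes, none reached the 4.58-fold difference of BCKDHA in CM versus IM.

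In the sulfur list, the enzymes that act on cysteine sulfinate and its precursor ran in opposite directions. CDO1, cysteine dioxygenase, was at 9343 FPKM in IM, 4791 in CM and 12532 in CMT, 1.95-fold (1.9 to 2.0) lower in CM than in IM. CSAD, which takes the product on toward taurine, was at 42.5, 122 and 34.8 FPKM, 2.87-fold (2.54 to 3.24) higher in CM than in IM and 3.49-fold (3.03 to 4.04) lower in CMT than in CM. The tryptophan list had both extremes as well. AADAT, an aminotransferase of kynurenine and of the lysine product 2-aminoadipate, was at 478 FPKM in IM, against 78.7 in CM and 91.5 in CMT, so CMT stayed near CM, 5.22-fold (4.47 to 6.12) below IM. ACMSD, which diverts the tryptophan route away from NAD synthesis, was at 65.0, 162 and 35.5 FPKM, highest in CM like KYNU.

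Among the genes for glycine, serine and threonine, GLDC, of the glycine cleavage system, was the highest in CM relative to IM at 348 FPKM in IM, against 614 in CM and 369 in CMT, and AGXT2, a mitochondrial aminotransferase, the lowest at 5205, 2376 and 6537. PYCR1, of proline synthesis, was at 27.1, 67.1 and 19.3 FPKM on 19, 64 and 11 recovered reads. AMDHD1 was the lowest of the lysine, histidine and proline list. ABAT, which degrades gamma-aminobutyrate, was at 1099.8, 418 and 915 FPKM in IM, CM and CMT. Near the urea cycle, ARG2, the mitochondrial arginase, was at 266, 128 and 153 FPKM, in contrast to the small difference in ARG1, and SLC25A12, another aspartate carrier, at 15.6, 27.9 and 22.0 on 27, 66 and 31 reads. For phenylalanine and tyrosine, GCH1, of tetrahydrobiopterin synthesis, was at 96.3, 39.2 and 57.5 FPKM and DDC, an aromatic amino acid decarboxylase, at 302, 323 and 332. Among the transporters, SLC38A2 was at 349, 236 and 245 FPKM and SLC36A1 at 52.8, 62.4 and 48.6; SLC1A2, named here after its values were seen, was 19.5-fold (15.4 to 25.1) lower in CM than in IM.

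**Figure D4:**
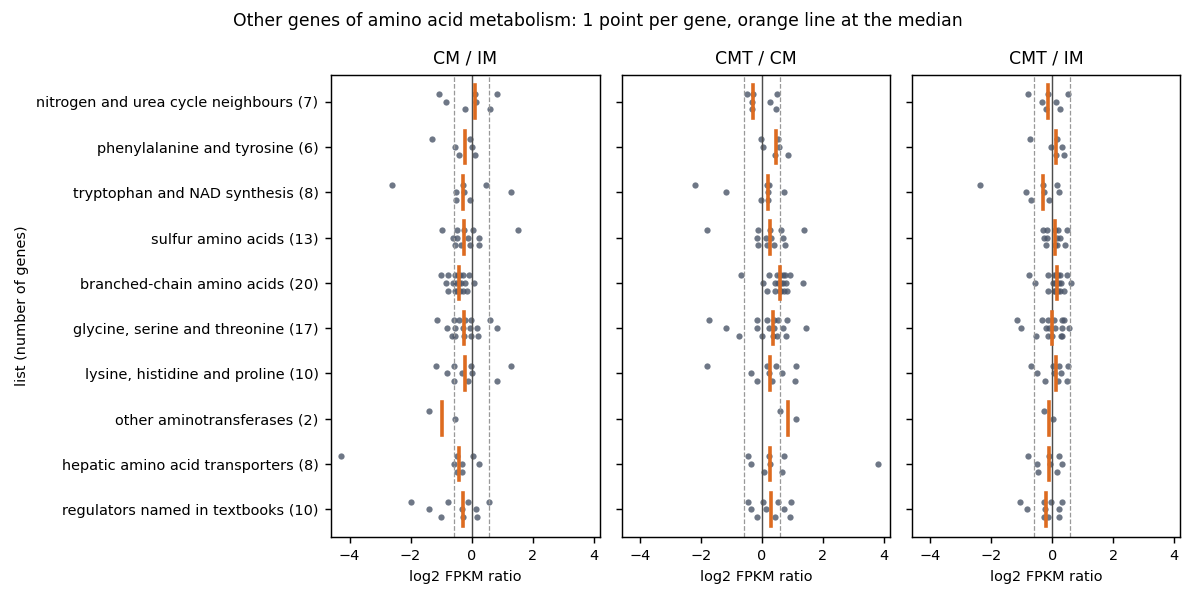
Log2 FPKM ratio of 101 other genes of amino acid metabolism by list, 1 point per gene, with the list median as an orange line and dashed lines at 1.5-fold. The median of the 20 branched-chain genes is -0.42 in CM / IM and 0.60 in CMT / CM as deposited, and single genes such as AADAT, CSAD and SLC1A2 lie far from their list.

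Regulators that textbooks connect with hepatic amino acid catabolism were read last. Of 10 found, 4 were lower and none higher in CM versus IM, or 40.0% lower beside 12.1% of all features and 11.5% of the abundant ones. Rescaled to the recovered reads, 3 were lower, without CREB3L3, and 1 was higher, CEBPA, and the median log2 ratio of the list moved from -0.28 to -0.00. FOXO1, a fasting-responsive factor restrained by insulin, was at 265 FPKM in IM, 67.1 in CM and 127 in CMT, with CM 3.95-fold (3.62 to 4.32) below IM. CEBPB was at 496, 190.4 and 277 FPKM, 2.61-fold (2.37 to 2.86) lower in CM than in IM. KLF15, a factor known to control amino acid catabolic genes, was at 972, 482 and 807 FPKM, 2.02-fold (1.90 to 2.14) lower, and CREB3L3, a factor of the fasted liver, at 2838, 1682 and 3299.7, 1.69-fold (1.63 to 1.75) lower. CMT lay above CM by at least 1.5-fold for FOXO1, KLF15 and CREB3L3, of which KLF15 fell short after rescaling. As deposited that is 30.0% of the 10, beside 12.1% of all features and 14.1% of the abundant ones.

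NR3C1, CEBPA, HNF4A, PPARA and ATF4 stayed within 1.5-fold in all comparisons as deposited. The glucocorticoid receptor NR3C1 was at 102 FPKM in IM, 113 in CM and 100.2 in CMT. CEBPA was at 183, 274 and 213 FPKM, just inside the threshold in CM versus IM. After rescaling it was past it, higher in CM than in IM and lower in CMT than in CM. HNF4A was at 896, 829.8 and 1114, PPARA at 318, 264 and 271, and ATF4, a factor of amino acid shortage, at 1059, 861 and 954 FPKM. No relation between these factors and the enzymes was tested, and 3 libraries would not allow one.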

How the data were processed

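Liver RNA of each group was pooled in equal amounts, made into 1 library per group (IM, CM and CMT) and read as 100-bp pairs, which the authors checked with FastQC and mapped to the pig genome with TopHat. The values the authors deposited are named FPKM, with 34579 features in each library and 22945 of them mRNA. The counting program, its handling of shared reads and the library divisor are not given in the sources used here. The build of the files differs from that of the reference tables, so no coordinates or sequences are printed.

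The FPKM of a gene moves in equal steps, 1 per read, and these gave divisors of 2.51, 3.42 and 2.04 and the reads of 22999 features (94.7% of those above 0). They were matched against 13 mitochondrial genes, of which 9 agreed in length within 2 bases. The divisors were chosen to make this agreement largest and then the shares of odd reads most alike, so neither is a check of them. Read numbers were odd for 32.5%, 32.7% and 31.9% of a subset of features above 0 in all libraries. Both mates were thus often counted, which makes the intervals too narrow. The length taken was the smallest that gave whole reads in every library, so reads are known only up to a common factor. Where such a factor was lost, the printed reads are too low and the intervals too wide. Ratios were computed without a pseudocount; a call needed 1.5-fold and 1 FPKM or more throughout, and no p-value was computed. Features listed by gene number were matched to RefSeq symbols, 2 of the listed genes and 11 of the other genes. Stray empty columns of the tables were not used. The recovery was tested on simulated reads, drawn with the recovered lengths and without pairing. That test could not show a common factor lost in the real data. Python 3.11.15, numpy 2.4.6, pandas 2.3.3 and scipy 1.17.1 were used.

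The members and lists were chosen with earlier results of these data known. Named are all members, the highest and the lowest gene in CM versus IM of each other list at 10 FPKM or more in all libraries, the regulators, and, for comparison beside a member, related genes of its route; some genes of the lists are not reported here. Alternatives were the FPKM minimum, the fold, a pseudocount of 1, 4 rescalings, intervals on reads divided by 2, and the addition of ASL and AGXT.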

Additional observations from a re-analysis of the deposited data

How the results depend on the processing

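No paired analysis was possible because each group was 1 library, and no replicate could be left out. Rescaling columns moved the members' median log2 ratio in CM versus IM from -0.44 to -0.19 (equal column sums) and -0.16 (recovered reads), and in CMT versus CM from 0.35 to 0.27 (upper quartile), 0.12 (column sums) and 0.11 (recovered reads), where 8 members instead of 13 were higher under the last 2 settings. In CMT versus IM it moved from -0.03 to 0.02 with the recovered reads. Of all called features in CM versus IM, 48.0% were higher as deposited, 74.8% with equal column sums and 77.4% with recovered reads, and in CMT versus CM 47.3%, 24.1% and 23.3%. No called member or called ASL or AGXT value changed sign under any rescaling. Among the other genes, 14 (column sums) and 12 (recovered reads) instead of 22 were lower in CM versus IM. In CMT versus CM 12 and 11 instead of 31 were higher and 14 under both instead of 8 lower, and in CMT versus IM none instead of 1 was higher with the upper quartile. These shifts follow from the construction of the rescaling.

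At 2-fold, 2 members were higher and 9 lower in CM versus IM, 6 and 3 in CMT versus CM, and 4 lower in CMT versus IM. The other genes at 2-fold were 3 higher and 11 lower in CM versus IM, 7 higher and 6 lower in CMT versus CM, and 0 higher and 4 lower in CMT versus IM. Over all features at 2-fold, 720 were higher and 744 lower in CM versus IM. In CMT versus CM 749 were higher and 995 lower, and in CMT versus IM 338 and 621. All features past the threshold numbered 3621, 4006 and 2618 in the 3 comparisons, 1464, 1744 and 959 at 2-fold, 2027, 2303 and 1088 with a minimum of 10 FPKM, and 710, 847 and 283 with 100 FPKM. The minimum of 100 FPKM and the addition of ASL and AGXT, with which 16 genes were lower in CM versus IM and 14 higher in CMT versus CM, were chosen after seeing the data. With reads divided by 2, the intervals of all called genes with reads still lay off 1 (20, 19 and 7 genes).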
